A study of Mus musculus with 12 samples.

Results

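Integrins are membrane receptors built from 1 alpha and 1 beta chain, through which cells hold on to matrix proteins and to other cells. The alpha-V chain pairs with several beta chains, and some of these dimers pull on the latent complex that keeps TGF-beta inactive and so release the cytokine. In the lung, alveolar macrophages live on the airspace surface, clear dying cells and particles, and depend on TGF-beta for their identity. Described here are 10 integrin chains of that kind: Itgav (alpha-V), its partners Itgb1, Itgb3, Itgb5 and Itgb8, the beta-1 partners Itga4, Itga5 and Itga6, and the beta-7 chain Itgb7 with its partner Itgae. They were taken by gene symbol from the 55291 symbols of the expression table, and all 10 were present. The symbols were chosen by family membership with the measured differences between ozone and filtered air already known, that of Itgb5 among them. The ozone differences of these genes, and the adjusted p-values of the fit over all genes printed beside them, therefore describe the data and support nothing on their own.

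RNA was measured in alveolar macrophages sorted by flow cytometry from the lungs of female C57BL/6NJ mice, 8 to 11 weeks old. Of the 12 mice, 6 had breathed 0.8 ppm ozone and 6 filtered air, on 4 days in a row for 4 h each day, and the lungs were taken 3 days after the last exposure. Both groups were of the same strain and sex, carried no engineered allele per the labels, and were split over 2 flow-sort batches with 3 mice of each group in each. The labels do not name the surface markers of the sort. Values are variance-stabilized, batch-corrected expression on a log2 scale, and the mean of the filtered-air mice is 0 in every gene. A value is therefore a distance from that mean, differences are compressed in genes with few reads, and 1 chain's level cannot be set against another's.

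RNA integrity numbers lay between 8.9 and 9.7, and relative depth, read from the size of 1 read in the low values, lay between 0.871 and 1.22. All 10 listed alveolar macrophage markers, among them Siglecf, Marco, Fabp4 and Pparg, lay above the shared minimum (the value of mice without a read) in all 12 mice. Between the groups 2 of these 10 passed in limma (adjusted p under 0.05), against 4.25% of all genes tested, and 7 of the 10 were negative. Those passing were Car4 at 0.32 (SE 0.0836) and Krt79 at -0.35 (SE 0.0762). Of the others, Cidec differed by -0.20 (SE 0.0578, adjusted p = 0.0667 in limma) and Marco by 0.58 (SE 0.187, adjusted p = 0.108). Cidec and Marco were named after their values were seen. Also above the minimum in all 12 mice were all 7 T cell, 6 dendritic cell, 5 B cell, 7 monocyte or interstitial macrophage, 6 endothelial and 8 epithelial markers, and 4 of the 6 neutrophil markers (S100a8, S100a9, Mmp8 and Retnlg). Of the other neutrophil genes, Camp was constant across the mice and Ly6g was at the shared minimum in 11 of 12. Fewer cells of a type and less RNA per cell cannot be told apart in such bulk samples.

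After ozone Itgb5 was higher and Itga4 was lower, and the 7 other chains tested did not pass. Itgb5 encodes the beta-5 chain, which forms the vitronectin receptor alpha-V beta-5 and takes part in the uptake of dying cells. Itga4 encodes the alpha-4 chain of VLA-4, the receptor by which leukocytes bind VCAM-1 and fibronectin. Of the 10 chains, 9 had enough reads to be tested, and 2 of these 9 had an adjusted p under 0.05 in limma, against 4.25% of the 19633 genes tested (2.41% higher and 1.84% lower). Both were also the chains in which the groups did not overlap, a state found in 3.53% of all genes tested. The median difference of the 9 chains was -0.023, beside -0.0033 over all genes tested.

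For Itgb5 and Itga4, the 250 bases upstream of the start of each gene are shown, as RefSeq gives them for build GRCm38.p6. A link of any motif to the ozone differences was not tested. Itgb5 lies on chromosome 16 on the plus strand, from 33829665 to 33949338, and the bases shown are chr16:33829415-33829664. Itga4 lies on chromosome 2 on the plus strand, from 79255426 to 79333123, and the bases shown are chr2:79255176-79255425. Capitals mark matches, on either strand, to the GC box GGGCGG or to the SMAD core CAGAC.
Itgb5: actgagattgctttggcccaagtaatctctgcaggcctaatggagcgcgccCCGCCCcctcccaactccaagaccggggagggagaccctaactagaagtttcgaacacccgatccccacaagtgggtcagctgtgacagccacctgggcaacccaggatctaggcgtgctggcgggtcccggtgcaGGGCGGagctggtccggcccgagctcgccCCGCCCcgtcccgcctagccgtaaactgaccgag
Itga4: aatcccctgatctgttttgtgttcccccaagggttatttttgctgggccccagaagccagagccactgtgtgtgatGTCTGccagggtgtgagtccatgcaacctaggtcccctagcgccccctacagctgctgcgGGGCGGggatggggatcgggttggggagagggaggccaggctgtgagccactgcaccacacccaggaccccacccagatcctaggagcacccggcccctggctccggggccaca
The Itgb5 stretch held 3 GC boxes and no SMAD core, and the Itga4 stretch held 1 of each. Among 32851 promoter stretches of the same length, 32.7% held a GC box and 42.2% a SMAD core. The AP-1 element TGANTCA, found in 6.75% of all stretches, and the PU.1-type ETS core GAGGAAG, found in 10.6%, were in neither. No searched motif overlapped another in these stretches. Promoter entries were found for 7 of the 10 chains, of which 4 held a GC box, 4 a SMAD core, 1 the ETS core and 0 the AP-1 element.

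Itgb5 was the most evenly raised of the chains. In filtered air its values ran from -0.088 to 0.045 with a median of 0.016, and after ozone from 0.32 to 0.39 with a median of 0.35. Every ozone mouse lay above every filtered-air mouse, and the space between the groups, 0.28, was wider than the range within either. The difference was 0.35 (SE 0.0340, 95% interval 0.28 to 0.43), with SDs of 0.047 in filtered air and 0.028 after ozone (n = 6 each), and its adjusted p in limma was 0.000112. Within the sort batches the difference was 0.34 in batch 1 and 0.37 in batch 2. Batch 2 alone, with 3 mice against 3, did not pass in limma (adjusted p = 0.0890). Leaving out any 1 mouse gave between 0.33 and 0.36.

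Itga4 moved the other way by about the same size. Its filtered-air values ran from -0.23 to 0.18 with a median of -0.0013, and its ozone values from -0.48 to -0.24 with a median of -0.29. Every ozone mouse lay below every filtered-air mouse, but only by 0.011, since filtered-air mouse 3 at -0.23 came close to ozone mouse 5 at -0.24. The gene fell by 0.33 (SE 0.0637, 95% interval -0.47 to -0.19; adjusted p = 0.00940 in limma), with SDs of 0.14 in filtered air and 0.092 after ozone (n = 6 each). The difference was -0.29 in batch 1 and -0.37 in batch 2, and neither batch alone, with 3 mice against 3, passed in limma (adjusted p = 0.28 and 0.16). After quantile normalization it was -0.28 and no longer passed in limma (adjusted p = 0.117). On the opposite strand, Cerkl shares 1124 exonic bases with Itga4 in GENCODE M21, and the counting's use of strand is not given in the sources used here, so reads of the pair may not be fully separated. Cerkl differed by -0.17 (SE 0.0491, adjusted p = 0.0788 in limma).

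**Figure D1:**
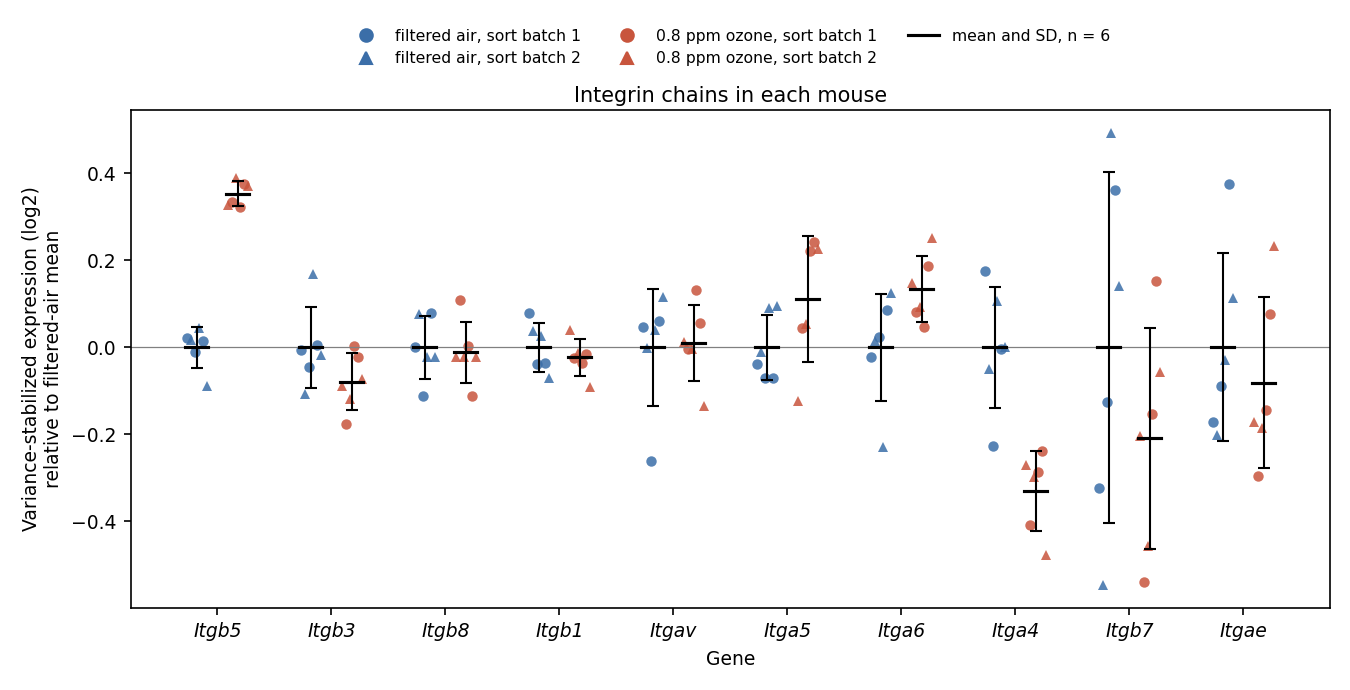
Expression of the 10 integrin chains in each of the 12 mice, on the log2 variance-stabilized scale relative to the filtered-air mean; blue is filtered air, red is 0.8 ppm ozone, circles are sort batch 1, triangles sort batch 2, and black bars are the mean and SD of 6 mice. The ozone mice lie above all filtered-air mice in Itgb5 and below them in Itga4, while in the other 8 chains the groups overlap and Itgb7 and Itgae spread most.

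The alpha-V chain, the shared partner of beta-5, did not follow it. Itgav (chromosome 2, 83724397 to 83806916, plus strand in GENCODE M21, build GRCm38, as for the genes that follow) ran from -0.26 to 0.12 in filtered air, with a median of 0.043, and from -0.13 to 0.13 after ozone, with a median of 0.0054. The groups overlapped, with filtered-air mouse 3 below every ozone mouse and ozone mouse 4 above every filtered-air mouse, and the difference was 0.010 (SE 0.0615, 95% interval -0.12 to 0.14). That interval lies below the lower end of the Itgb5 interval. The direction differed between batches, at 0.11 in batch 1 and -0.093 in batch 2, and filtered-air mouse 3 alone held the lowest value. Without that mouse the difference was -0.048. Gm13684 on the opposite strand shares 634 exonic bases with Itgav in GENCODE M21, so the reads of this pair too may not be fully separated.

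Of the beta chains that share alpha-V, none besides Itgb5 passed. Itgb3 (chromosome 11, 104608000 to 104670476, plus strand), the beta chain of a vitronectin receptor of osteoclasts and platelets, ran from -0.11 to 0.17 in filtered air and from -0.17 to 0.0042 after ozone. Of its ozone values, 2 of 6 lay below every filtered-air mouse, and the difference was -0.079 (SE 0.0479, 95% interval -0.18 to 0.024), or -0.041 without filtered-air mouse 4. Itgb1 (chromosome 8, 128685654 to 128733200, plus strand), the beta chain shared by most matrix receptors, was the least variable chain after Itgb5, with SDs of 0.057 in filtered air and 0.042 after ozone. Its difference was -0.023, with a 95% interval from -0.10 to 0.057, so a change of Itgb1 as large as that of Itgb5 lay outside the interval. Leaving out any 1 mouse gave between -0.039 and -0.0052.

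Itgb8 (chromosome 12, 119158022 to 119238802, minus strand), whose alpha-V dimer is a main activator of latent TGF-beta on several cell types, was close to the limit of detection. It was above the shared minimum in 3 of 6 filtered-air mice and 2 of 6 ozone mice, and so did not meet the filter of 6 of 12. The square of the distance above the minimum, in units of the first step, came to whole numbers. These were 1 read in filtered-air mouse 1, 1 in mouse 2 and 3 in mouse 5, and 4 reads in ozone mouse 2 and 1 in mouse 4. Each group thus held 5 reads, and a difference was not detectable at this depth.

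Neither of the other beta-1 partners, Itga5 and Itga6, passed. Itga5 (chromosome 15, 103344286 to 103366763, minus strand), the alpha chain of the fibronectin receptor, ran from -0.070 to 0.095 in filtered air and from -0.12 to 0.24 after ozone. Ozone mice 4, 5 and 6 lay above every filtered-air mouse, and ozone mouse 1 lay below every one of them. The SD was 0.15 after ozone and 0.075 in filtered air, and the difference was 0.11 (SE 0.0628, 95% interval -0.023 to 0.25). It was 0.23 in batch 1 and -0.0064 in batch 2. Itga6 (chromosome 2, 71745616 to 71858416, plus strand), the alpha chain of laminin receptors, ran from -0.23 to 0.12 in filtered air and from 0.048 to 0.25 after ozone. In this gene 3 of 6 ozone mice lay above every filtered-air mouse. The difference was 0.13 (SE 0.0572, 95% interval 0.012 to 0.26), with an unadjusted p of 0.0331 in limma and an adjusted p of 0.242; before adjustment 16.7% of all genes were under 0.05. Without filtered-air mouse 4 it was 0.084.

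**Figure D2:**
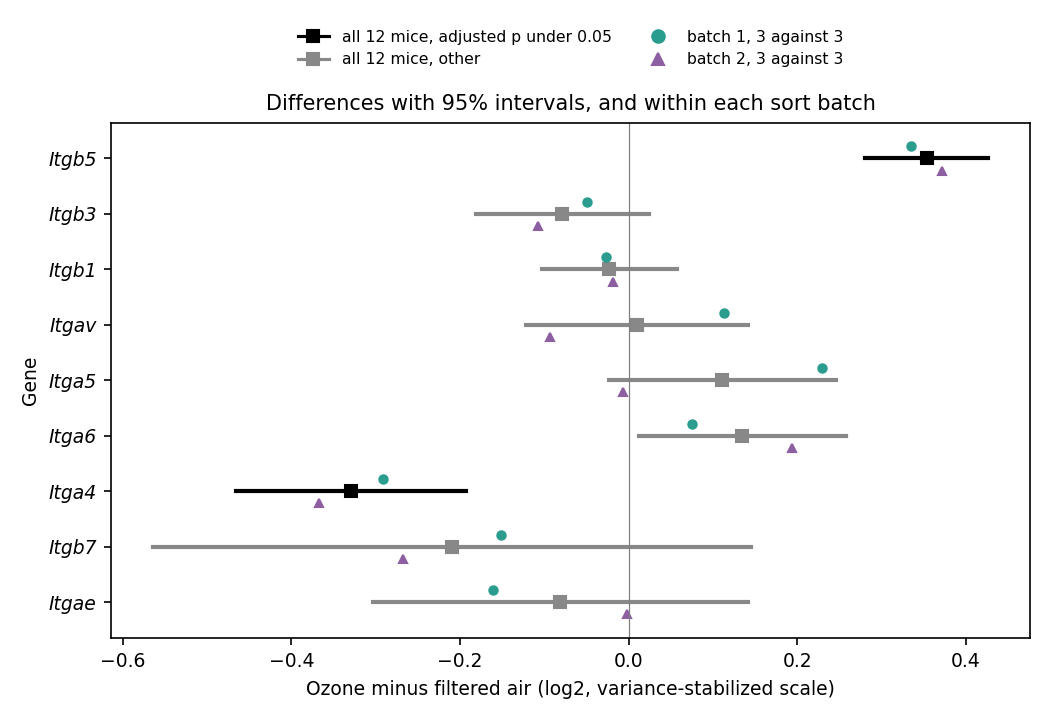
Difference between ozone and filtered air for the 9 tested chains on the log2 variance-stabilized scale, with squares and lines for all 12 mice and their 95% intervals, and small symbols for each sort batch (3 mice against 3). The intervals of Itgb5 (0.28 to 0.43) and Itga4 (-0.47 to -0.19), drawn in black, are those with an adjusted p under 0.05, and in Itgav and Itga5 the batches lie on either side of 0.

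A test that the choice of genes did not use was whether the ozone effect differed between the sort batches. In limma's interaction test 0 of the 9 chains had an adjusted p under 0.05, as did 0 of all 19633 genes, with 2.60% of all genes under 0.05 before adjustment. The chains with the largest interaction relative to its error were Itga5, at -0.24 (SE 0.114, unadjusted p = 0.0587), and Itgav, at -0.21 (SE 0.115, unadjusted p = 0.0968), and each had an adjusted p of 1.00. For Itgb5 the interaction was 0.036 (SE 0.0702) and for Itga4 -0.076 (SE 0.131).

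Itgb7 (chromosome 15, 102215995 to 102231944, minus strand) and Itgae (chromosome 11, 73090583 to 73147446, plus strand) form the alpha-E beta-7 receptor, with which intraepithelial T cells and some dendritic cells hold on to E-cadherin. Both varied widely between mice of the same group. Itgb7 ran from -0.55 to 0.49 in filtered air and from -0.54 to 0.15 after ozone, and Itgae from -0.20 to 0.38 and from -0.30 to 0.23. The groups overlapped in both, and the differences, -0.21 (SE 0.166) for Itgb7 and -0.081 (SE 0.104) for Itgae, were smaller than the filtered-air SDs of 0.40 and 0.22. Single mice moved both: Itgb7 was -0.10 without filtered-air mouse 4, -0.13 without filtered-air mouse 5, -0.14 without ozone mouse 2 and -0.33 without filtered-air mouse 2. Itgae was 0.0024 without filtered-air mouse 5, -0.034 without ozone mouse 2, -0.13 without filtered-air mouse 2 and -0.15 without ozone mouse 6. Haspin, a mitotic kinase gene, lies on the opposite strand within Itgae without shared exonic bases, and differed by 0.17 (adjusted p = 0.218 in limma).

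The deviation of each mouse from the mean of its group within its batch is independent of the ozone difference, and it was compared between chains that form dimers. With every mouse taken as independent, Itgb7 and Itgae varied together (Pearson r = 0.77, two-sided exact permutation p = 0.00540, adjusted over 9 pairs p = 0.0486; Spearman rho = 0.87, exact permutation p = 0.00231, adjusted p = 0.0208; n = 12 mice). Without the 2 mice farthest from the median of Itgb7 the r was 0.91. It was 0.97 in batch 1 and 0.59 in batch 2. After quantile normalization r was 0.82 with an adjusted exact permutation p of 0.0556. Mice with the same number in the 2 groups had similar deviations in both genes (r = 0.90 for Itgae and 0.74 for Itgb7 over the 6 numbers). Same-numbered mice were then averaged, a step chosen after seeing the data. Over the 6 averages the r of Itgb7 and Itgae was 0.82 and rho 0.77. The pair no longer passed (permutation p = 0.0556 and 0.103, adjusted p = 0.250 and 0.408). These p-values are approximate, since the averages share group and batch means unequally, and each average joins different animals. The call on 12 mice takes the mice as independent, which the averages cannot settle. The other 8 pairs did not pass, with r from -0.55 to 0.66 (adjusted exact permutation p from 0.349 to 0.688) and rho from -0.51 to 0.74 (adjusted p from 0.243 to 0.554). Itgav and Itgb5 were among them, with r = -0.098 (exact permutation p = 0.688), rho = -0.19 (p = 0.513) and r = -0.34 without the 2 farthest mice. Another was Itgav with Itgb8 (r = 0.31), which could show little, since Itgb8 was at the shared minimum in 7 of 12 mice.

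The deviations were also set beside marker lists of other cells, and none of these relations passed after adjustment. Against the mean of the 7 T cell markers, Itgae had r = 0.97 and rho = 0.99 (exact permutation p = 0.00154 and 0.00231), and r = 0.96 without the 2 farthest mice. Itgb7 had r = 0.86 and rho = 0.86 with the same list (exact permutation p = 0.00309 and 0.00463), and r = 0.91 without the 2 farthest mice. With the 7 markers of monocytes or interstitial macrophages Itgb7 had r = 0.92 and rho = 0.90 (exact permutation p = 0.00463 and 0.00617), and r = 0.87 without those mice. The 6 markers of conventional dendritic cells gave r = 0.85 and rho = 0.86 with Itgb7 (exact permutation p = 0.00540 and 0.00463), and r = 0.84 without those mice. With Itgae they gave r = 0.86 and rho = 0.94 (exact permutation p = 0.0108 and 0.00463), and r = 0.72 without the 2 farthest mice. These belong to 81 relations of 9 chains with 9 lists, chosen after seeing the data. None of the 81 had an adjusted p under 0.05, with the smallest at 0.109 for r and 0.0938 for rho, and a single permutation of the 1296 is worth a p of 0.000772. These p-values too take the 12 mice as independent, while same-numbered mice had similar deviations in the T cell list (r = 0.90), the monocyte list (r = 0.84) and the dendritic cell list (r = 0.67). High r was not confined to these genes: over the 9 lists the median r was 0.64 for Itgb3 (from 0.51 to 0.77), 0.62 for Itgb7, 0.58 for Itgae and 0.52 for Itga5. The part of RNA from other cells in the spread of these chains was not tested.

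**Figure D3:**
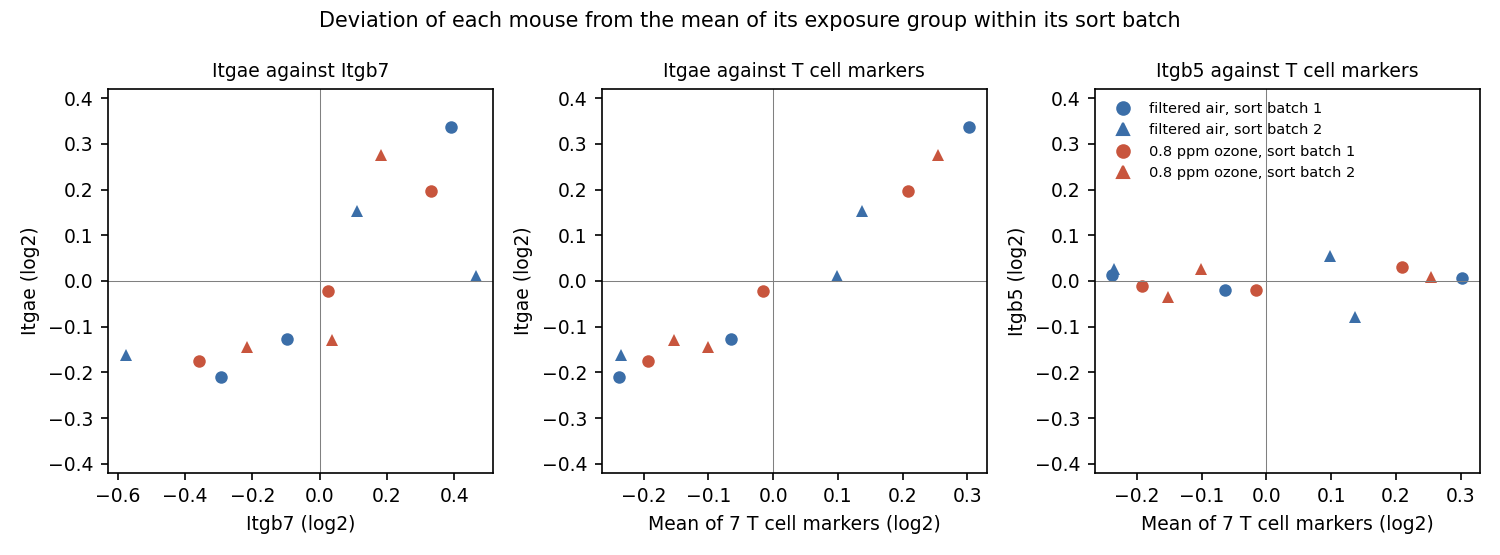
Deviation of each of the 12 mice from the mean of its exposure group within its sort batch, in log2 units, for Itgae against Itgb7 (left), Itgae against the mean of 7 T cell markers (middle) and Itgb5 against the same markers (right); colours and symbols are as in the plot of each mouse. The r of Itgae is 0.77 with Itgb7, a pair that no longer passed with same-numbered mice averaged or after quantile normalization. With the T cell markers the r of Itgae is 0.97, which did not pass (adjusted exact permutation p = 0.109). The r of Itgb5 with these markers is 0.031 (0.40 in batch 1 and -0.14 in batch 2), and over all 9 lists it runs from -0.039 to 0.49.

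The same lists were set beside the chains that differed after ozone. Across the 9 lists, r ranged from -0.039 to 0.49 for Itgb5 and from -0.48 to 0.41 for Itga4. Without the 2 mice farthest from the median of the chain these ranges were -0.54 to 0.20 and -0.11 to 0.47, and the r of Itgb5 turned from 0.49 to -0.26 with the epithelial list and from 0.49 to -0.53 with the neutrophil list, so the values rest on those mice. None of the 6 fibroblast markers passed in limma, with mean levels from -0.096 to 0.12 in filtered air and from -0.092 to 0.21 after ozone. Of the 7 markers of monocytes or interstitial macrophages 0 passed and 6 were positive, with levels from -0.22 to 0.29 and from -0.0076 to 0.32. Of the 5 B cell markers 0 passed and all 5 were negative, with levels from -0.25 to 0.35 in filtered air and from -0.30 to -0.13 after ozone. The T cell list, with 0 of 7 passing, ran from -0.24 to 0.30 and from -0.18 to 0.27. Of the 8 epithelial markers 7 were negative and 1 passed, Epcam, at -0.55 (adjusted p = 0.00620 in limma; named after its value was seen), with levels from -0.24 to 0.32 in filtered air and from -0.21 to -0.024 after ozone. Of the 6 dendritic cell markers 0 passed and 5 were negative (levels from -0.20 to 0.17 and from -0.20 to 0.076), and of the 6 endothelial markers 0 passed and 5 were negative (levels from -0.27 to 0.31 and from -0.30 to 0.27). The 4 neutrophil markers tested, 2 of them negative, ran from -0.23 to 0.37 and from -0.020 to 0.14, and the 5 platelet markers tested, 2 of them negative, from -0.070 to 0.054 and from -0.038 to 0.078; none of either list passed. The 10 alveolar macrophage markers, 7 of them negative, ran from -0.11 to 0.11 and from -0.082 to 0.15. The part of these marker lists in the Itgb5 and Itga4 differences was not tested.

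The rest of the pathway was read from 6 lists, chosen like the chains with earlier results known. Among 15 other integrin chains 1 fell and 1 rose in limma, where 4.25% of all genes tested passed. Itgad, which encodes alpha-D, fell (difference -1.03, SE 0.0878, adjusted p = 6.53e-05), and Itgb2, its beta-2 partner, rose by 0.19 (SE 0.0460, adjusted p = 0.0319). Itgb6, whose alpha-V dimer is an epithelial activator of TGF-beta, differed by 0.068 and did not pass.

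On the ligand side, Spp1, which encodes osteopontin, a ligand of alpha-V and alpha-4 dimers, was the 1 of 14 matrix and counter-receptor ligands to pass, beside the same 4.25%. It rose by 0.71 (SE 0.0810, adjusted p = 0.000428 in limma). Mfge8, which bridges dying cells to alpha-V dimers, was next at 0.29 (SE 0.102, adjusted p = 0.142), with 0.44 in batch 1 and 0.15 in batch 2. The ligands fibronectin (Fn1, 0.014) and vitronectin (Vtn, -0.024) did not pass. Mfge8, Fn1, Vtn and Itgb6 lie outside the naming rule and were chosen after their values were seen.

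Of 11 genes of TGF-beta ligands and their latency, 2 fell and 0 rose. The counts in these short lists stand beside 1.84% lower and 2.41% higher among all genes tested. Tgfb2, a TGF-beta ligand, fell by 0.41 (SE 0.0896, adjusted p = 0.0185 in limma), and Furin, the protease that cleaves TGF-beta precursors, fell by 0.37 (SE 0.0761, adjusted p = 0.0124). Tgfb1, another TGF-beta ligand, differed by -0.12 (SE 0.0404, adjusted p = 0.113), and Thbs1, a matricellular activator, by -0.59 (SE 0.205, adjusted p = 0.140). Nrros, which tethers latent TGF-beta on myeloid cells, differed by 0.017. Tgfb1, Thbs1 and Nrros were also chosen after their values were seen. Among 11 receptors and SMADs 0 passed, with 4 positive and 7 negative. The smallest p belonged to Tgfbr2, the type 2 receptor, at 0.13 (SE 0.0397, adjusted p = 0.0961). Of 8 TGF-beta response genes 1 passed, Skil, an inhibitor of SMAD signalling that TGF-beta induces, which fell by 0.21 (SE 0.0398, adjusted p = 0.00886).

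Of 32 integrin adaptor and partner genes, 2 fell and 0 rose in limma, beside 1.84% lower and 2.41% higher among all genes tested. Cd151, a tetraspanin that binds laminin-receptor integrins, fell by 0.32 (SE 0.0362, adjusted p = 0.000428), and Crk, an adaptor in the uptake pathway downstream of beta-5, fell by 0.17 (SE 0.0433, adjusted p = 0.0354). The median of the adaptors was -0.052, with 22 of 32 negative. Talin-1 (Tln1, 0.071) and kindlin-3 (Fermt3, 0.013), which switch integrins on and were chosen for that role after their values were seen, did not pass.

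**Figure D4:**
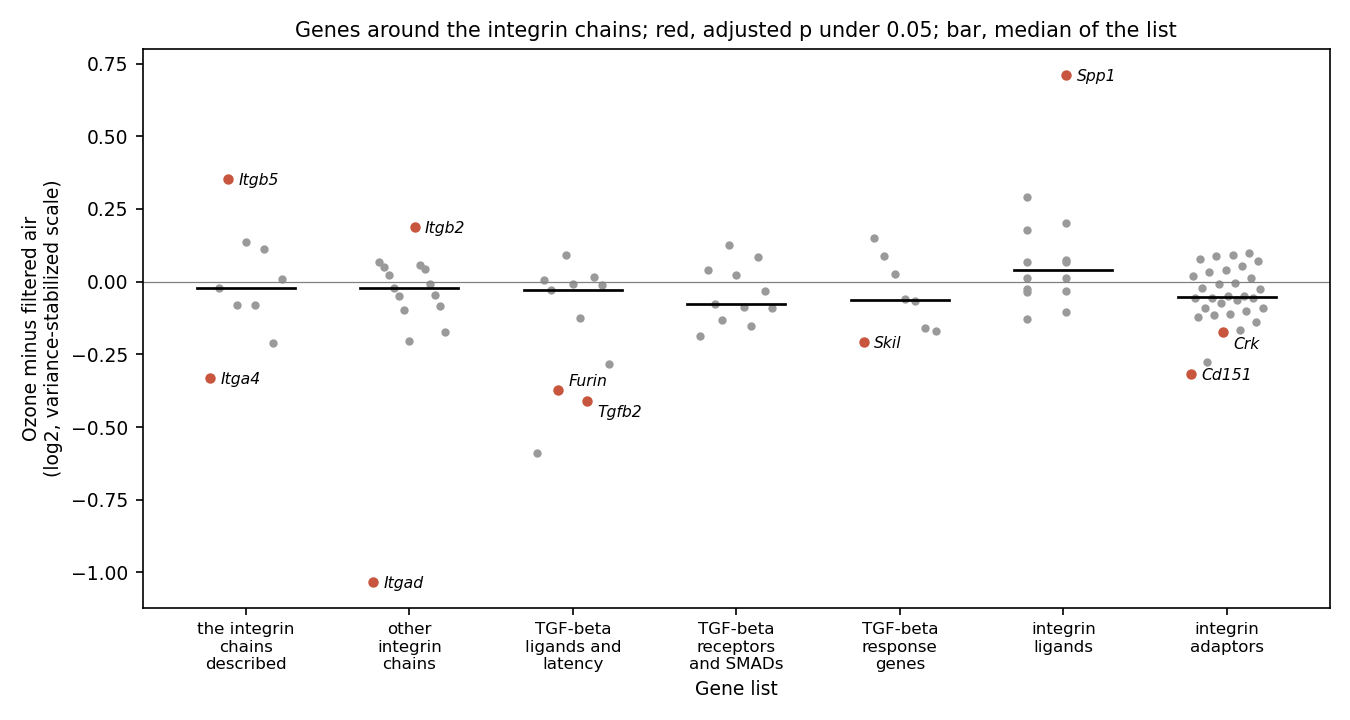
Difference between ozone and filtered air (log2, variance-stabilized scale) for each tested gene of 7 lists, with genes at an adjusted p under 0.05 in red and named, the others in grey, and a bar at the median of each list. Most genes lie close to 0, Spp1 (0.71) is the highest and Itgad (-1.03) the lowest, and the list medians lie between -0.076 and 0.040.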

How the data were processed

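The authors deposited 1 table of log2 values with 1 column per mouse. Per the name of the deposited file, the values are variance-stabilized and batch corrected. The submitters' processing notes name cutadapt, STAR 2.7.7a, Salmon 1.5.2, DESeq2 1.26.0, R 3.6.0, limma 3.42.2 and build mm10, without saying what each was used for. In the file the filtered-air mean and the difference between flow-sort batches are 0 in every gene, so no levels remain. The variance-stabilizing transformation compresses differences of genes with few reads. Within a batch, mice without a read share the lowest value. Of 25444 genes that vary, 19633 had at least 6 of 12 mice above it and were kept.

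Ozone was compared with filtered air in limma 3.58.1 (R 4.3.3) over all 19633 genes, with flow-sort batch as a covariate and Benjamini-Hochberg adjustment at a threshold of 0.05, after tests on simulated data. Relative depth is the inverse square of the first step above the minimum; between 79.4% and 85.1% of the values up to 5 reads lay within 0.1 of a whole read. Deviations were permuted within exposure and batch, taking the mice as independent, and also averaged over same-numbered mice. Positions are from GENCODE M21 (GRCm38). The chains, lists and tests were chosen with earlier results of these data known. Named were all 10 chains and, from each list, the genes with an adjusted p under 0.05 (at most 6) or else the gene with the smallest p. Alternatives were other filters, the variance trend, a robust fit, quantile normalization, no batch covariate, RNA integrity as covariate, a replicate block, each batch alone and leaving out each mouse. The labels give each sample its own mouse number.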

Additional observations from a re-analysis of the deposited data

Results flagged for a closer look

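Of 18 groups of 6 values examined in the 9 tested chains, 1 held a mouse far from the others, and chance gives about 1 in 20. Filtered-air mouse 3 had an Itgav value of -0.26, with the next lowest mouse at -0.0014, a gap of 0.689 of the range of the group, which is above Dixon's 95% value for 6 mice. Without it the Itgav difference was -0.048 in place of 0.010 and still did not pass in limma (adjusted p = 0.684).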

How the results depend on the processing

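Itgb5 kept its direction and its call in 21 of 22 alternative fits and Itga4 in 19 of 22. Itgb5 fell short in batch 2 alone (0.37), and Itga4 after quantile normalization (-0.28), in batch 1 alone (-0.29) and in batch 2 alone (-0.37); each batch alone uses fewer mice. The other 7 chains passed in none of their 22 fits. Signs turned for Itgav in batch 2 alone (-0.093) and without single mice (-0.048 to 0.042), for Itga5 in batch 2 alone (-0.0064) and for Itgae without single mice (-0.15 to 0.0024, the latter without filtered-air mouse 5); the cause was not tested. Itgav with Itgb5 had an r of 0.063 and 0 pairs passed after quantile normalization, where Itgb7 with Itgae fell short. Itgb8 could be fitted only without the filter (-0.011).

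The 834 genes called, 473 higher and 361 lower, became 171, 106 and 65 after quantile normalization, which was the largest move with all 12 mice. Quantile normalization was run on values already centred on the filtered-air mean of each gene. It therefore made the distribution of deviations alike between mice, and not that of expression levels. The variance trend gave 221 lower genes. Batch 1 alone gave 90, 71 and 19, and batch 2 alone 0, 0 and 0 in limma, with fewer mice. Without single mice the counts ranged from 538 (without filtered-air mouse 1) to 751, from 326 to 456 higher and from 212 to 312 lower. Adding the replicate block gave 853 genes, which share 686 with the 834, and Itgb5 and Itga4 kept their calls. Same-numbered mice are different animals. Their deviations correlated from -0.089 to 0.26, over 0.1 in 5 of 6 pairs, and 4 of 12 mice correlated best with their own number. The fit was planned without the block, since these are different animals and, for numbers 1 to 4, come from different sort batches. The permutations of single mice take no account of what same-numbered mice share. With same-numbered mice averaged, 0 partner pairs passed, so Itgb7 with Itgae (r = 0.82) fell short, and Itgav turned sign with Itgb5 (0.063) and with Itgb8 (-0.072); this alternative was chosen after seeing the data and leaves 6 values. Itgb8 had at most 4 reads in any mouse.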
